A study of Homo sapiens with 16 samples.

Results

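Metal transporters, metallothioneins and a few iron storage and uptake genes were followed across siRNA knockdowns in GIST cells. The genes were taken by name: symbols that begin with SLC30A, SLC39A, SLC31A, SLC11A or SLC40A, the metallothioneins MT1 followed by a letter, MT2A, MT3 and MT4, and ATP7A, ATP7B, TFRC, FTH1 and FTL. A transcript cluster is a set of exon probes summarized as 1 value, which can carry 1 gene symbol, several or none, and a gene was counted where a cluster carried its symbol alone. This gave 35 of the 14232 genes with a cluster of their own: 10 SLC30A genes, 10 SLC39A genes, 6 metallothioneins, 4 copper genes and 5 iron genes. Of 46 genes that fit the names in RefSeq, 7 were measured only in clusters shared with another gene (MT1E, MT1F, MT1H, MT1M, SLC39A7, SLC39A11 and SLC39A12) and 4 had no named cluster here (FTH1, MT1A, MT2A and SLC39A10).

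The cells were GIST T1, a human gastrointestinal stromal tumor line with a heterozygous KIT mutation. Each of 14 arrays held RNA of cells given 50 nM siRNA against 1 gene, either a zinc finger gene (ZNF528, ZNF665, ZNF91, ZNF43, ZNF85, ZNF100, ZNF708, ZNF429, ZNF431 or ZNF254) or 1 of the 4 others GTF21 (as labelled; the gene symbol is GTF2I), IGF2R, IGFBP2 and RASSF8. The other 2 arrays held cells given a nonsilencing siRNA, siCON, and are labelled 24 h and 72 h. All 16 arrays come from 1 cell line, neither labels nor methods say when the knockdowns were harvested, and no knockdown has a second array. The values are log2 expression estimates, so that a difference of 1 is a 2-fold change.

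Cells keep zinc, copper and iron within narrow limits because each metal is both a cofactor and a poison. SLC39A proteins (ZIPs) bring zinc into the cytosol, SLC30A proteins (ZnTs) move it out of the cytosol into organelles or out of the cell, and metallothioneins are small cysteine-rich proteins that bind zinc and copper. The zinc-sensing factor MTF1 binds metal response elements upstream of metallothionein genes and of SLC30A1. SLC31A1 (CTR1) takes up copper and the pumps ATP7A and ATP7B export it. TFRC takes up transferrin-bound iron, SLC11A2 carries it out of the endosome, ferritin stores it and SLC40A1 exports it, with iron regulatory proteins acting on the mRNAs of several of them.

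The promoters of 3 genes are shown because their levels are compared below: MT1X, a metallothionein, SLC30A1, a zinc exporter gene that MTF1 also controls, and SLC31A1, the 1 member that passed the test against siCON. They are the 250 bases before the transcription start in RefSeq (GRCh38.p14), at chr16:56682220-56682469 on the plus strand, chr1:211579162-211579411 on the minus strand and chr9:113221294-113221543 on the plus strand. Capitals mark the core of the metal response element (TGCACNC or TGCGCNC on either strand) in MT1X and SLC30A1, and the GC box (GGGCGG on either strand) in SLC31A1.
MT1X: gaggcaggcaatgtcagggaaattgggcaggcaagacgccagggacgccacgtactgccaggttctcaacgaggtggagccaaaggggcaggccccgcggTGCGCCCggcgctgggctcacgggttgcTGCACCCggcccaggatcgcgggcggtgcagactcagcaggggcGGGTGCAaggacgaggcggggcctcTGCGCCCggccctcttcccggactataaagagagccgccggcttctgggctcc
SLC30A1: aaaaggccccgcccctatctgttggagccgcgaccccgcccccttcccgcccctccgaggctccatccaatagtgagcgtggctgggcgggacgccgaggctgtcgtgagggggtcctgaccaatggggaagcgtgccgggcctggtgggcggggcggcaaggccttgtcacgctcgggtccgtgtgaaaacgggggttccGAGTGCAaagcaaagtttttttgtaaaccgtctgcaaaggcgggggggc
SLC31A1: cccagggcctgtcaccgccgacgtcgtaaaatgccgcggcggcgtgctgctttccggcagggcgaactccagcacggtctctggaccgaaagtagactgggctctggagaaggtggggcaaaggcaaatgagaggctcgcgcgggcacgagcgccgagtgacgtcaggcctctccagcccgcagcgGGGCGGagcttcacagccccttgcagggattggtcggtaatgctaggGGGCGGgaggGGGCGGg

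The MT1X promoter held 4 metal response element cores, SLC30A1 held 1 and SLC31A1 held 0. GC boxes, marked in SLC31A1 only, numbered 2 in MT1X, 6 in SLC30A1 and 3 in SLC31A1. Among 27302 RefSeq promoters searched over the same 250 bases, 24.7% held at least 1 such core, 0.366% held 4 or more, and 14% held 3 or more GC boxes. RefSeq promoters were matched for 28 of the 35 genes, and 12 of these 28 held a metal response element core, among them MT1B, MT4, SLC30A2 and TFRC with 3 each. A GC box was found in 15 of the 28, and in 42.3% of all promoters. The 7 genes without a match were MT1G, MT1L, MT3, SLC31A2, SLC30A8, SLC39A4 and SLC39A14. A matching string is a description of the letters and not evidence of binding.

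Over all 22011 clusters the array medians ran from 7.75 to 7.87 and the SDs from 2.16 to 2.27. The siCON arrays had SDs of 2.27 and 2.26 and medians of 7.75 and 7.76, and the ZNF429 array was like them (2.27 and 7.75). Every other knockdown had a smaller SD, at most 2.24 (ZNF91), and a higher median, at least 7.78 (ZNF665). Array scale thus differed along with the comparison with siCON. The IGF2R array had the smallest SD (2.16), and the share of clusters at least 0.5 from the siCON mean ran from 9.22% under ZNF100 to 36.7% under IGF2R. Of the GIST genes, KIT (13.0 to 13.5), ANO1 (12.7 to 13.2), CD34 (13.1 to 13.6) and ETV1 (11.1 to 12.2) were high on every array. PRKCQ (8.73 to 9.87) and BCHE (8.13 to 9.18) were lower, and none of the 6 lay under the lower quartile on any array. Markers of other cell types were mixed. Under the lower quartile on all 16 arrays lay 2 of 4 epithelial genes (EPCAM and CDH1), 2 of 3 blood genes (PTPRC and CD3E), 1 of 3 endothelial genes (PECAM1) and 1 of 2 hepatocyte genes (ALB). The others, KRT18 and KRT19, CD14, VWF and CDH5, and APOA1, lay under it on 0 arrays, with siCON means of 10.4 for KRT18 and 6.36 to 7.88 for the rest. Of the 14 silenced genes, 5 had a cluster of their own, and all 5 lay below the siCON mean on their own array, by 0.18 (ZNF528) to 1.42 (ZNF254) in log2 units. In 4 of the 5 that array was the lowest of all 16, the exception being ZNF43. ZNF528 read 4.54 on its own array and 4.72 with siCON, both under the lower quartiles of the arrays (6.13 to 6.42) and near the floor. In a bulk array a lower value can reflect fewer cells that carry the RNA or less RNA per cell, which cannot be told apart here.

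Against siCON, 1 of the 35 genes was higher in the knockdowns, the copper importer SLC31A1, and 0 were lower (limma with Benjamini-Hochberg adjustment over all clusters). Over all clusters the same test called 0.259% higher and 0.282% lower. At an unadjusted p under 0.05, 2 of the 35 stood out, SLC31A1 and the zinc exporter SLC30A1, against 14.7% of all clusters. Of the 35 mean differences 31 lay above 0, with a median of 0.20, while 59.4% of all clusters lay above 0 with a median of 0.07. With the array medians made equal the genes' median was 0.15 and that of all clusters 0.02, and 31 of 35 stayed above 0. Each siRNA is a different treatment, so the spread over the 14 knockdowns that serves as error includes differences between treatments. Every knockdown is set against the same 2 siCON arrays, and a shift shared by all 14 cannot be told apart from a shift of those 2.

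**Figure D1:**
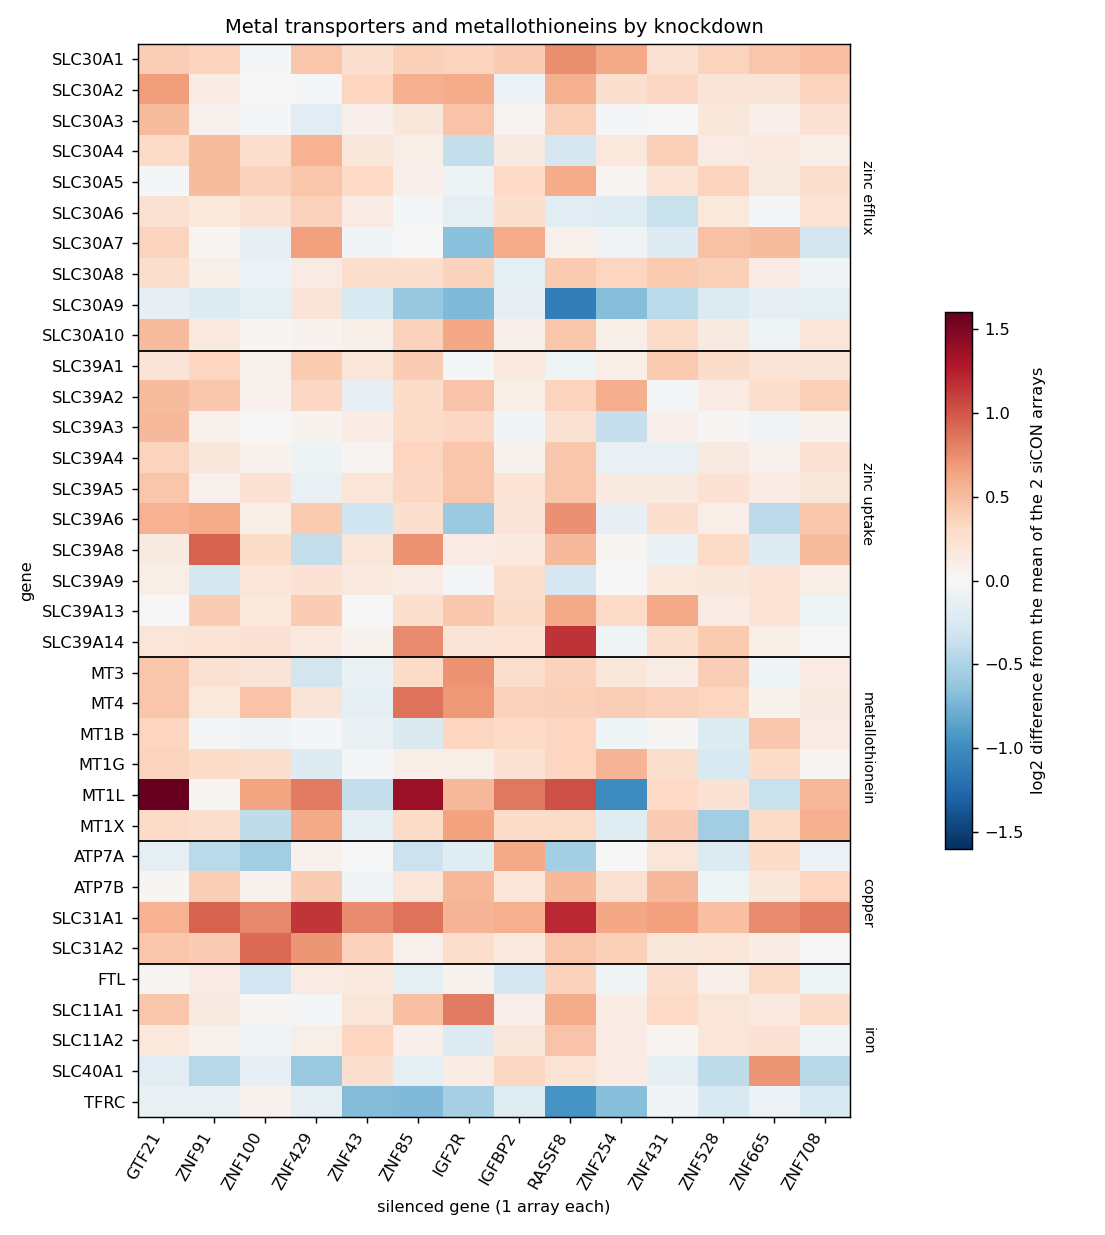
Log2 difference of each of the 35 genes (rows, grouped by role) from the mean of the 2 siCON arrays on each of the 14 knockdown arrays (columns), as a colour scale with red above and blue below siCON. SLC31A1 lies above siCON in every column, from 0.48 to 1.20, and TFRC and SLC30A9 lie below both siCON arrays in 13 of 14 columns.

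SLC31A1 encodes CTR1, the plasma membrane protein that brings copper into the cell. It read 10.53 and 10.43 on the siCON arrays. The 14 knockdowns ran from 10.96 (ZNF528) through a median of 11.24 to 11.68 (RASSF8), with 11.63 under ZNF429. All 14 lay above both siCON arrays and the groups did not overlap, as in 1 of the 35 genes against 4.81% of all clusters. The opposite pattern, every knockdown below both siCON arrays, was found in 0 of the 35 and in 4.52% of all clusters. The mean was 11.25 ± 0.22 (SD, n = 14) and the difference 0.76 ± 0.158 (SE), a 1.70-fold rise (limma adjusted p = 0.0389). An exact permutation test over the 16 arrays gave p = 0.00833, which is the smallest value that 120 choices of 2 arrays allow. The call was close to its threshold. The adjusted p was 0.0625 with equal array medians, 0.0514 to 0.0528 without the ZNF43, ZNF85, ZNF665 or ZNF708 array, and 0.437 and 0.682 with only 1 siCON array left, while the difference stayed between 0.71 and 0.83 in all of these and with quantile normalization.

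SLC31A2, a relative of SLC31A1 that lies near it on chromosome 9, with FKBP15 between them, and sits mainly in endosomes and lysosomes, read 7.96 and 7.94 with siCON. The knockdowns ran from 7.95 (ZNF708) through a median of 8.27 to 8.85 (ZNF100). The other 13 knockdowns lay above both siCON arrays and ZNF708 lay between them. The difference of 0.33 ± 0.173 (SE) did not pass (limma adjusted p = 0.358). PRPF4, a splicing factor gene past CDC26 on the other side of SLC31A1, differed by 0.05 (limma adjusted p = 0.823).

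The copper pump ATP7A, which loads copper enzymes in the Golgi and exports excess copper, read 8.60 and 8.49 with siCON and ran from 7.99 (ZNF100) through a median of 8.42 to 9.14 (IGFBP2). The ZNF100 and RASSF8 arrays were the lowest and IGFBP2 was the highest of all 16. The mean difference was −0.10 ± 0.221 (SE; limma adjusted p = 0.806). ATP7B, the related pump that is best known from the liver, read 6.95 and 7.16 with siCON and 6.99 (ZNF528) to 7.59 (IGF2R), with a median of 7.27, in the knockdowns. Its groups overlapped and its difference of 0.25 ± 0.153 (SE) did not pass (limma adjusted p = 0.397).

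**Figure D2:**
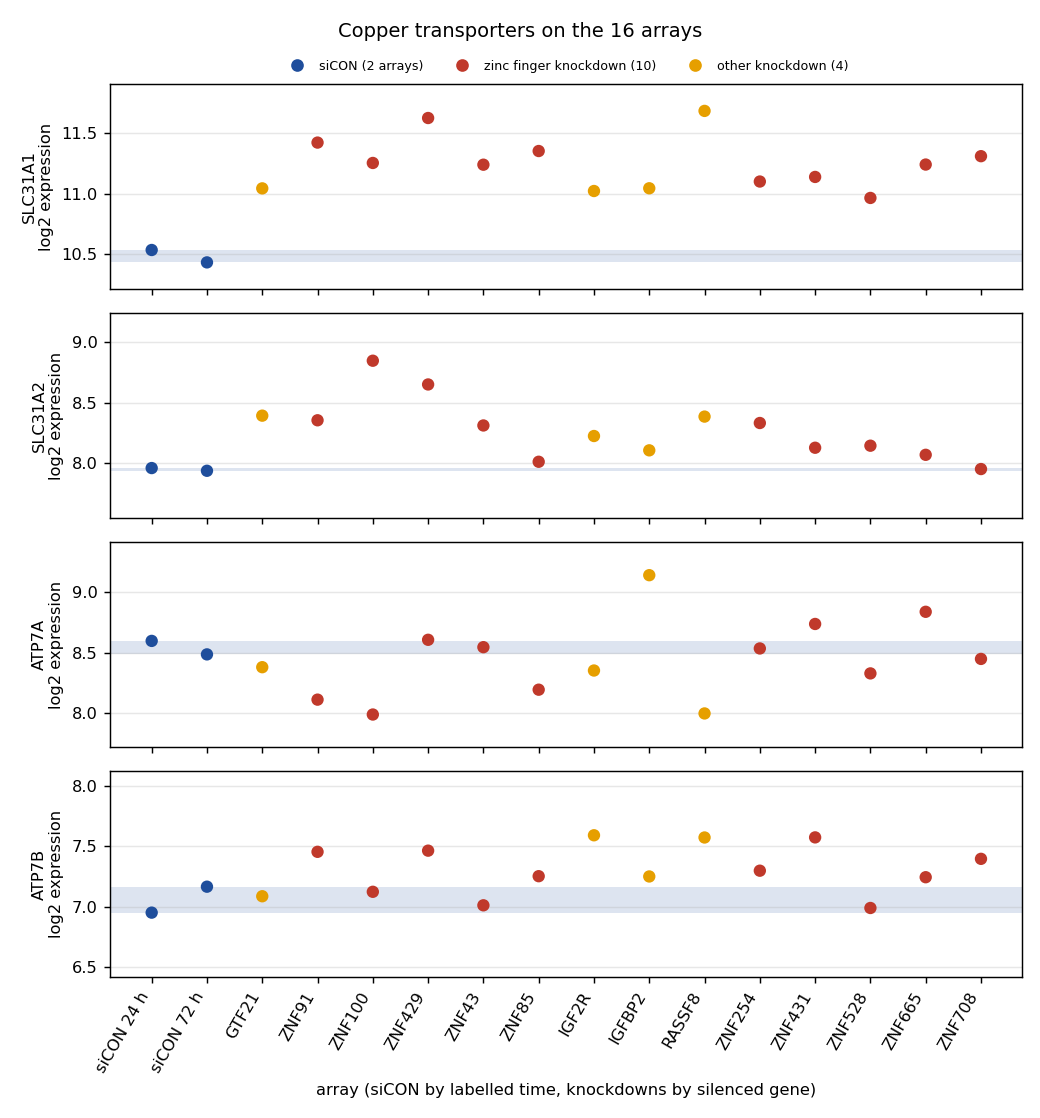
Log2 expression of the 4 copper genes on each of the 16 arrays (points; blue siCON, red zinc finger knockdowns, orange other knockdowns; the shaded band spans the 2 siCON arrays). All 14 knockdown points of SLC31A1 lie above the band, at 10.96 to 11.68, while those of ATP7A lie on both sides.

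Among the 10 SLC30A zinc transporters, 0 passed the test in either direction. Their differences ran from −0.34 (SLC30A9) to 0.39 (SLC30A1), with a median of 0.19 and 9 of 10 above 0. SLC30A1, the plasma membrane zinc exporter and an MTF1 target, read 9.08 and 8.97 with siCON and ran from 9.01 (ZNF100) through a median of 9.41 to 9.77 (RASSF8). Every knockdown except ZNF100 lay above both siCON arrays. The difference was 0.39 ± 0.133 (SE), with an unadjusted p of 0.00878 and an adjusted p of 0.225 in limma. SLC30A7, which fills the Golgi with zinc, had the widest spread among the SLC30A genes: 9.74 and 9.5 with siCON, and from 8.95 (IGF2R) through a median of 9.64 to 10.28 (ZNF429). Its mean difference of 0.09 was smaller than its SE of 0.256.

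SLC30A9, a zinc transporter of mitochondria, was the 1 SLC30A gene with a mean difference below 0. It read 10.12 and 10.06 with siCON and ran from 8.99 (RASSF8) through a median of 9.88 to 10.29 (ZNF429), and every knockdown except ZNF429 lay below both siCON arrays. The RASSF8, IGF2R, ZNF254 and ZNF85 arrays were the lowest, at 8.99, 9.38, 9.41 and 9.48. The mean difference of −0.34 ± 0.225 (SE) did not pass (limma adjusted p = 0.426). SLC30A9 also tracked the SD of the arrays over the 14 knockdowns (r = 0.77, a description over arrays that share 1 normalization), and the part of array scale in it was not tested.

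The other 7 SLC30A genes differed from siCON by 0.06 (SLC30A6) to 0.29 (SLC30A2), with adjusted p of 0.381 to 0.830 in limma. SLC30A8, known as the zinc transporter of insulin granules in beta cells, lay under the lower quartile (6.13 to 6.42) on all 16 arrays. SLC30A2, SLC30A3 and SLC30A10, whose products fill vesicles or export zinc and manganese, read 6.4 to 7.9 over all arrays, while SLC30A4, SLC30A5 and SLC30A6, which load endosomes and the early secretory pathway, read 8.21 to 11.15.

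Among the 10 SLC39A zinc importers, 0 passed in either direction, although all 10 mean differences lay above 0, from 0.09 (SLC39A9) to 0.28 (SLC39A14), with a median of 0.21. They stayed above 0 with equal array medians, quantile normalization and removal of the trend on expression. SLC39A14 (ZIP14), which takes up zinc, manganese and iron not bound to transferrin, read 8.52 on both siCON arrays. The knockdowns ran from 8.46 (ZNF254) through a median of 8.73 to 9.68 (RASSF8), with 9.28 under ZNF85. RASSF8 stood 1.16 above siCON and was the highest of all 16 arrays. The mean difference was 0.28 ± 0.217 (SE; limma adjusted p = 0.471).

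SLC39A8 (ZIP8), an importer of zinc and manganese, read 10.28 and 10.21 with siCON and ran from 9.86 (ZNF429) through a median of 10.42 to 11.19 (ZNF91). ZNF91 and ZNF85, the second at 10.96, were the highest and ZNF429 was the lowest of all 16 arrays. SLC39A6 (LIV-1), known as an estrogen-regulated zinc importer in breast cancer, read 9.09 and 9.04 with siCON and ran from 8.47 (IGF2R) through a median of 9.30 to 9.79 (RASSF8). Their mean differences of 0.23 ± 0.240 and 0.16 ± 0.263 (SE) were no larger than their errors (limma adjusted p = 0.577 and 0.737). The IGF2R and RASSF8 arrays thus sat at opposite ends for SLC39A6, although both had many clusters far from siCON.

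The other 7 SLC39A genes (SLC39A1, SLC39A2, SLC39A3, SLC39A4, SLC39A5, SLC39A9 and SLC39A13) differed by 0.09 to 0.27 with adjusted p of 0.378 to 0.729 in limma. SLC39A13, a transporter of early secretory vesicles, read 10.13 and 10.22 with siCON and 10.11 (ZNF708) to 10.78 (ZNF431) in the knockdowns. SLC39A2 lay under the lower quartile on all 16 arrays. Of the genes measured only in shared clusters, SLC39A7, which releases zinc from the endoplasmic reticulum, shares its cluster with SLC39A4. That cluster read 9.67 and 9.87 with siCON and 10.04 (GTF21) to 10.88 (RASSF8), with a median of 10.45, in the knockdowns, all 14 above both siCON arrays. The same pattern was found in 4.81% of all clusters. The shared cluster's difference of 0.69 ± 0.164 (SE) did not pass (limma adjusted p = 0.0686). The cluster of SLC39A4 alone differed by 0.15 (limma adjusted p = 0.556), and how much of the shared cluster's signal belongs to each gene cannot be read from the array.

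The metallothioneins lie together on chromosome 16 and are near-identical in sequence, so that probes of one can bind RNA of another. Of the 6 with a cluster of their own, 0 passed in either direction. MT1X, a metallothionein found in most tissues, read 6.03 and 6.26 with siCON and ran from 5.59 (ZNF528) through a median of 6.45 to 6.79 (IGF2R). Of the 14 knockdowns, 10 lay above both siCON arrays and 4 below both, and the difference of 0.19 ± 0.25 (SE) did not pass (limma adjusted p = 0.663). MT1X was under the lower quartile of its array on 5 of 16 arrays, so its low values are near the floor of the measurement.

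MT1L, which is annotated as a pseudogene, had the widest range of all 35 genes. It read 4.58 on the siCON array labelled 24 h and 2.91 on that labelled 72 h, and ran from 2.74 (ZNF254) through a median of 4.26 to 5.33 (GTF21) in the knockdowns. It lay under the lower quartile on all 16 arrays, and its difference changed from 0.44 with both siCON arrays to −0.39 without the 72 h array and 1.27 without the 24 h array. MT1B and MT1G were likewise under the lower quartile on every array. MT3, the metallothionein of brain, read 7.04 and 7.06 with siCON and 6.76 (ZNF429) to 7.77 (IGF2R) in the knockdowns, and MT4, that of stratified epithelium, read 6.24 and 6.10 with siCON and 6.01 (ZNF43) to 7.04 (ZNF85). Neither passed (limma adjusted p = 0.508 and 0.361).

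Metallothionein clusters shared by several genes are given beside the single ones. The cluster of MT1X and the pseudogene MT1IP read 6.07 and 5.99 with siCON and ran from 5.57 (ZNF91) through a median of 6.65 to 7.77 (IGF2R), with 13 of 14 knockdowns above both siCON arrays (difference 0.64 ± 0.353 SE, limma adjusted p = 0.371). The cluster of MT1H and MT1F read 3.76 and 4.19 with siCON and 6.78 under ZNF429, while the other knockdowns lay at 5.45 or below (difference 0.82 ± 0.483 SE, limma adjusted p = 0.384). The cluster of MT1E, MT1M and MT1JP read 7.04 and 6.95 with siCON and 6.76 (ZNF100) to 7.96 (IGF2R). IGF2R was the highest array in 4 of the 6 shared metallothionein clusters. Some of these carry the same genes, so they are not separate observations. The cluster of MT1JP, MT1E, MT1M and MT1P3 lay under the lower quartile on all 16 arrays. Under IGF2R 36.7% of all clusters lay at least 0.5 from siCON, and the share of all clusters highest on that array was not counted. In none of the shared clusters did the difference from siCON pass the test.

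**Figure D3:**
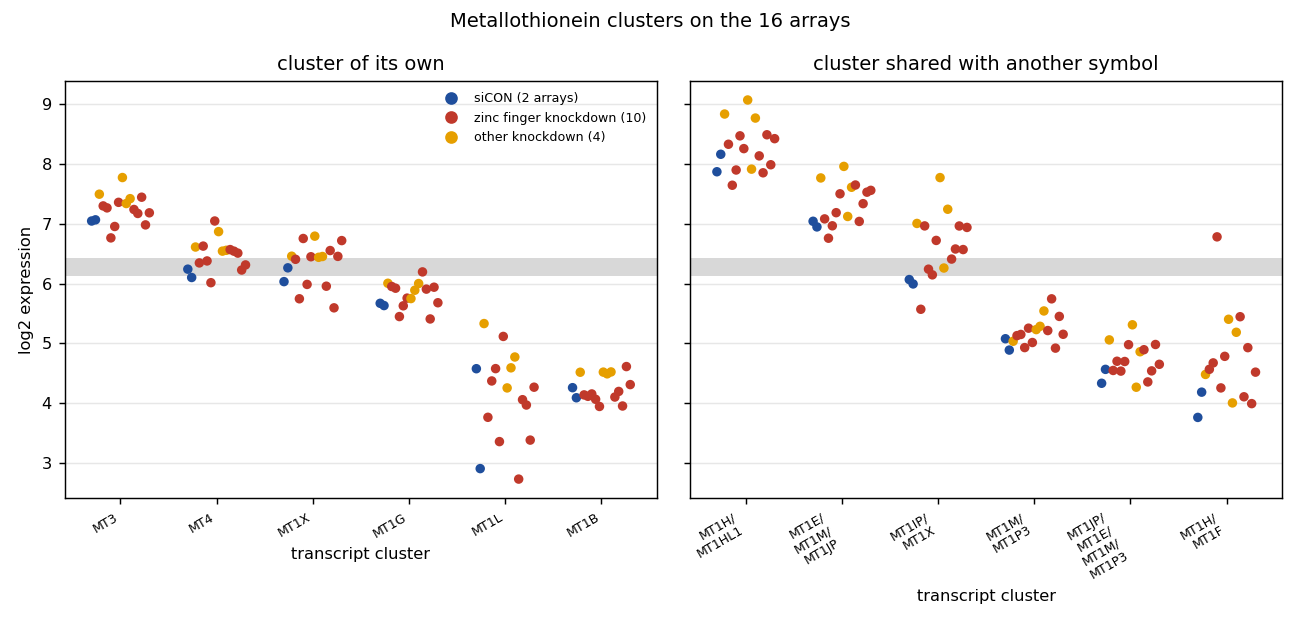
Log2 expression of metallothionein clusters, single and shared, on each of the 16 arrays (points; blue siCON, red zinc finger knockdowns, orange other knockdowns; the grey band spans the lower quartiles of the arrays, 6.13 to 6.42). Several clusters lie inside or under the band, and the cluster of MT1H and MT1F stands at 6.78 under ZNF429 against at most 5.45 elsewhere.

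Of the 5 iron genes, 0 passed in either direction. TFRC, the transferrin receptor, read 10.17 and 10.26 with siCON and ran from 9.26 (RASSF8) through a median of 10.00 to 10.28 (ZNF100). By eye, 5 knockdowns read lower than the other 9, a split that was not tested. RASSF8, ZNF85, ZNF43, ZNF254 and IGF2R read 9.26, 9.51, 9.52, 9.53 and 9.69, and the other 9 knockdowns lay between 9.97 and 10.28, close to siCON. Of the 14 knockdowns, 13 lay below both siCON arrays, and the mean difference of −0.34 ± 0.212 (SE) did not pass (limma adjusted p = 0.407). Of the 5 knockdowns with low TFRC, all but ZNF43 were also at least 0.5 below siCON for SLC30A9. In each of those 4, TFRC and SLC30A9 were low on the same array, and no other knockdown was that low for both. On these arrays 13.4% (ZNF254) to 36.7% (IGF2R) of all clusters lay at least 0.5 from siCON in either direction. The pairing was described after the values were seen. SLC30A9 tracked the SD of the arrays, and the part of array scale in the pairing was not tested.

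**Figure D4:**
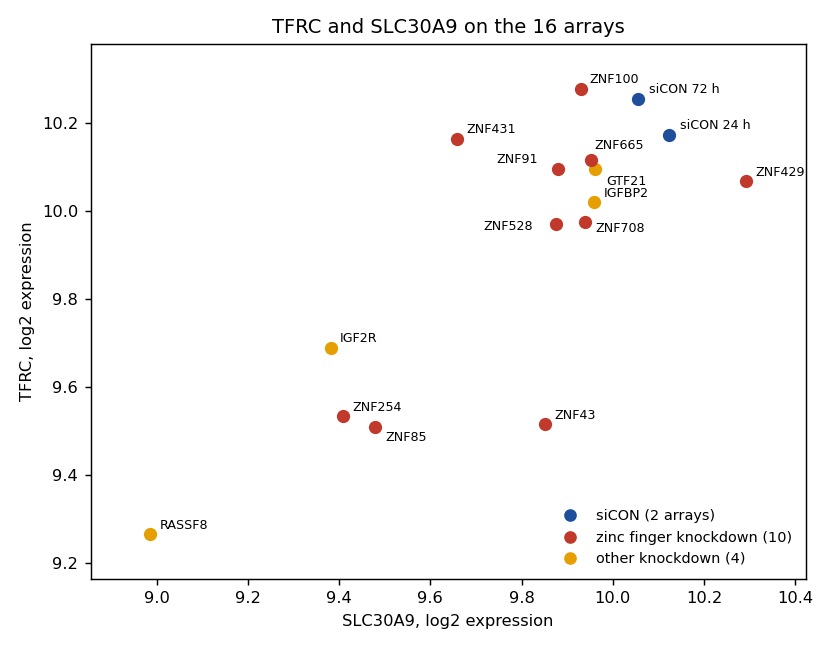
Log2 expression of TFRC (vertical) against SLC30A9 (horizontal) on the 16 arrays, each point labelled with its silenced gene or siCON time. RASSF8, IGF2R, ZNF254 and ZNF85 lie at the lower left, and ZNF43 is low for TFRC alone at 9.52. ZNF431 lies between for SLC30A9 at 9.66, and the others lie nearer the 2 siCON arrays.

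SLC40A1, ferroportin, the exporter of iron, spread widely without a common direction. It read 9.83 and 9.88 with siCON, and the knockdowns ran from 9.26 (ZNF429) through a median of 9.71 to 10.56 (ZNF665), with 6 above both siCON arrays and 8 below both. The mean difference of −0.05 ± 0.243 (SE) was within its error (limma adjusted p = 0.909), and its sign turned with quantile normalization (0.02) and with removal of the trend on expression (0.01). SLC11A2 (DMT1), which carries iron out of the endosome, read 9.26 and 9.35 with siCON and 9.10 (IGF2R) to 9.77 (RASSF8), with a median of 9.42 (difference 0.12 ± 0.129 SE, limma adjusted p = 0.592). FTL, the light chain of ferritin, read 8.55 and 8.74 with siCON and 8.34 (ZNF100) to 9.01 (RASSF8), with a median of 8.71. Its difference of 0.05 ± 0.149 (SE) was the closest to 0 of the 35 genes (limma adjusted p = 0.856).

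SLC11A1, the iron and manganese transporter of macrophage phagosomes, read 6.69 and 6.95 with siCON and ran from 6.80 (ZNF429) through a median of 7.01 to 7.65 (IGF2R). The IGF2R array was the highest of all 16 and RASSF8 followed at 7.42. The difference of 0.27 ± 0.172 (SE) did not pass (limma adjusted p = 0.404). Over the 14 knockdowns SLC11A1 ran against the SD of the arrays (r = −0.86, a description), and the IGF2R array, where it was highest, had the smallest SD, 2.16. The part of array scale in this was not tested.

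**Figure D5:**
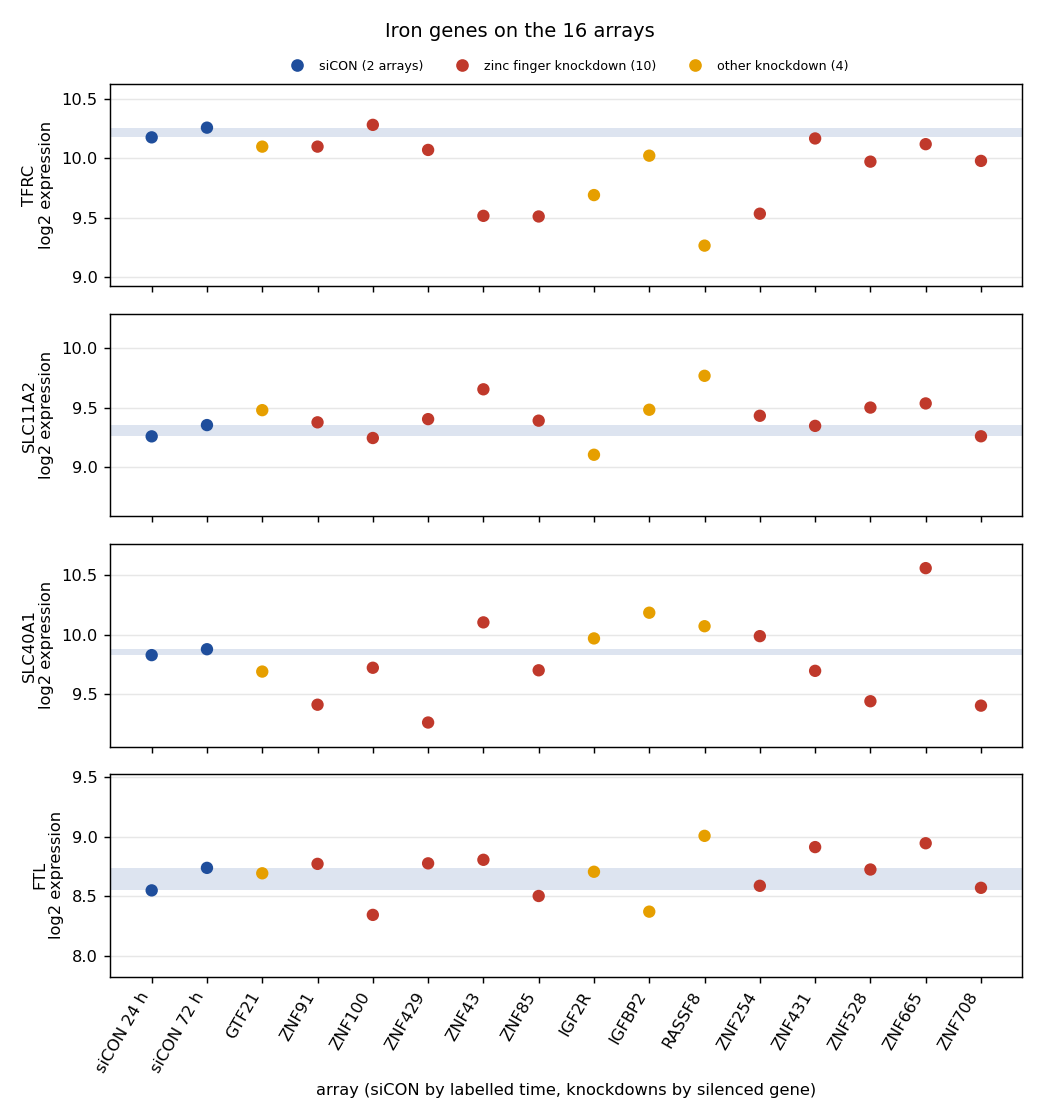
Log2 expression of TFRC, SLC11A2, SLC40A1 and FTL on each of the 16 arrays (points; blue siCON, red zinc finger knockdowns, orange other knockdowns; the shaded band spans the 2 siCON arrays). For TFRC 5 knockdowns lie at 9.26 to 9.69 and 9 lie at 9.97 to 10.28, and for SLC40A1 the points lie on both sides of the band.

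Other genes that handle iron, copper or zinc were counted for context. Of 59 listed, 45 had a cluster of their own, and 1 was higher and 0 lower in the knockdowns (limma). Over all clusters 0.259% were called higher and 0.282% lower. The 1 was APP, the amyloid precursor protein, which binds copper and zinc. It read 13.18 and 13.12 with siCON and 13.44 to 13.68 in the knockdowns, all 14 above both siCON arrays (13.57 ± 0.0763 SD, n = 14; difference 0.42 ± 0.0867 SE, limma adjusted p = 0.0389). Of the 45 genes, 6 had all 14 knockdowns above both siCON arrays and 1 had all 14 below. Over all clusters these patterns were found in 4.81% and 4.52%. APP was not followed through the alternative settings. The next by p were SLC22A17, a receptor for the siderophore-binding protein LCN2, CP, the ferroxidase ceruloplasmin, and LTF, lactoferrin, with differences of 0.50, 0.34 and 0.30 and limma adjusted p of 0.202, 0.281 and 0.297. CP lay under the lower quartile on all 16 arrays. At an unadjusted p under 0.05 stood 7 of the 45, 6 higher and 1 lower, against 14.7% of all clusters.

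Single knockdowns were described by size alone, since each is 1 array. A log2 difference of at least 1 from the siCON mean occurred in 8 of the 490 combinations of gene and knockdown, or 1.63%, against 2.16% over all clusters. The 8 belonged to 4 of the 35 genes, and 14.2% of all clusters had at least 1 such knockdown. They were SLC31A1 under RASSF8 (1.20) and ZNF429 (1.14), SLC39A14 under RASSF8 (1.16), SLC30A9 under RASSF8 (−1.10), and the dim MT1L under GTF21 (1.59), ZNF85 (1.37), RASSF8 (1.03) and ZNF254 (−1.01).

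The RASSF8 and IGF2R arrays held the most metal genes far from siCON. At least 0.5 from siCON were 14 of 35 genes under RASSF8 and 13 of 35 under IGF2R, where 25.2% and 36.7% of all clusters were. The share under IGF2R was thus close to that of all clusters. GTF21 and ZNF85 followed with 8 genes each (18.7% and 18% of all clusters), then ZNF429 and ZNF254 with 7 each (9.6% and 13.4%). ZNF91 had 5 (10.1%), and ZNF100, IGFBP2 and ZNF708 had 4 each (9.22%, 14.1% and 10.4%). ZNF431 and ZNF665 had 3 each (18.5% and 10.8%), ZNF43 had 2 (9.43%) and ZNF528 had 1 (10.4%). The median of the 35 genes was 0.38 under RASSF8, 0.34 under GTF21, 0.33 under IGF2R and lowest, 0.07, under ZNF100. RASSF8 was the highest or lowest of the knockdowns for SLC31A1, SLC30A1, SLC39A14, SLC39A6, SLC30A9, TFRC, SLC11A2 and FTL among the genes given in full. Some of those genes were chosen for a wide range or a large distance from siCON. How often RASSF8 was the highest or lowest over all clusters was not counted. Without the RASSF8 and IGF2R arrays, a choice made after the values were seen, SLC31A1 differed by 0.75 (limma adjusted p = 0.0268).

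Between the 10 zinc finger and the 4 other knockdowns, 0 of the 35 genes passed the test, and 0 of all clusters (0%) passed it (limma, smallest adjusted p 0.192 among the genes and 0.0537 over all clusters). At an unadjusted p under 0.05, 9 of the 35 were lower and 2 higher under zinc finger knockdown, against 13.6% and 6.25% of all clusters. The 2 that were higher were SLC30A4 (0.30) and SLC39A1 (0.20). This comparison rested on 1 array, which was singled out after each array had been left out in turn. With any other array left out, 0 of the 35 genes were called. Leaving out IGFBP2 left 3 other knockdowns of 1 array each. Without IGFBP2, 9 of the 35 genes were called, all lower under zinc finger knockdown, as were 11.9% of all clusters, while 3.44% of all clusters and 0 of the 35 were called higher. They were SLC30A2, SLC30A3, SLC30A10, SLC39A3, SLC39A4, SLC39A5, SLC11A1, MT1B and MT3, with differences such as −0.39 ± 0.0844 (SE) for SLC30A3 (limma adjusted p = 0.0161) and −0.43 ± 0.107 (SE) for SLC11A1 (limma adjusted p = 0.0207). Over the 14 knockdowns these 9 genes ran against the SD of the arrays, with r from −0.20 (MT1B) to −0.86 (SLC11A1), and the part of array scale in the 9 calls was not tested.

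Genes that share a regulator were set against each other across the 14 knockdowns, in 4 pairs. None passed (smallest adjusted p 0.393, 100000 permutations, two-sided). MT1X and SLC30A1, both targets of MTF1, had r = 0.33 (permutation p = 0.248) and rho = 0.20 (permutation p = 0.481), and r = −0.07 without the 2 arrays farthest from the MT1X median, ZNF100 and ZNF528. MT1X and MT1G had r = 0.01 (permutation p = 0.966) and rho = −0.12 (permutation p = 0.684), and r = −0.46 without the same 2 arrays. Both pairs were chosen after MT2A was found to have no cluster of its own. The other 2 pairs, TFRC with SLC11A2 and TFRC with SLC40A1, were planned. TFRC and SLC11A2 had r = −0.43 (permutation p = 0.124) and rho = −0.38 (permutation p = 0.182). Their r was −0.18 without ZNF85 and RASSF8, the 2 arrays farthest from the TFRC median. TFRC and SLC40A1 had r = −0.30 (permutation p = 0.295) and rho = −0.22 (permutation p = 0.453), and r = −0.29 without the same 2 arrays.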

How the data were processed

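RNA of GIST T1 cells was hybridized to 16 exon arrays (Affymetrix Human Exon 1.0 ST), 2 with siCON and 1 for each of 14 knockdowns. The deposited table holds log2 values of 22011 transcript clusters. The authors had made them by RMA with oligo, which corrects background, normalizes between arrays by quantiles and combines each gene's core probes. In the submitters' processing notes the build is hg19, with no tool versions. The values were used as deposited. The paper gives the siCON array labelled 24 h a later time. Each knockdown is a single array, so the spread behind each p-value is that over different siRNAs, and the number of arrays limits the precision.

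A table that pairs clusters with genes gave 1 symbol to 14432 clusters, several to 2408 and none to 5171, and only clusters with 1 symbol were named as genes, the one with the highest mean where a gene had several. RefSeq lists pseudogene copies of SLC31A1, SLC30A6 and SLC39A1 (SLC31A1P1, SLC30A6P1 and SLC39A1P1), whose RNA the probes may also bind. The 14 knockdowns were compared with siCON, and zinc finger with other knockdowns in a fit with 3 group means, with limma's lmFit and eBayes (limma 3.58.1 under R 4.3.3), which were tested on simulated data first. P-values were adjusted by Benjamini-Hochberg over every cluster and called under 0.05. Exact permutation tests over arrays, 100000 permutations for the relations, motif searches and plots were made with scipy 1.17.1, numpy 2.4.6, matplotlib 3.10.9 and pandas 2.3.3 (Python 3.11.15). Promoters came from RefSeq (GRCh38.p14).

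Values were given in full for genes that were called or whose knockdowns all lay beyond both siCON arrays, the 3 with the widest range over the knockdowns, the one farthest from siCON in each knockdown, and the best-known genes of each role. SLC30A9 was added after its values were seen, as were the shared clusters. The members and lists were chosen with earlier results of these data known. Alternatives were array medians made equal, quantile normalization, removal of the trend on expression (loess, span 0.3), dim clusters left out, the methods' pooled-variance test, other variance models, averaging of a gene's clusters, other thresholds, the zinc finger knockdowns alone and each array left out. Other assays of the study were not analysed here.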

Additional observations from a re-analysis of the deposited data

Results flagged for a closer look

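Within the 4 other and within the 10 zinc finger knockdowns, the highest and lowest array of each of the 35 genes was compared with the rest of its group by Dixon's gap ratio. Of 70 groups, 10 held an array set apart by this ratio. A share of about 1 in 20 by chance holds only for separate groups of like arrays. Here the 35 genes share the same arrays and each array is a different siRNA, so the 10 cannot be judged against it. How often all clusters held such an array was not counted. The ratio is relative to the spread of the group, so the gap itself can be small, as for MT1B. Among the 4 other knockdowns, RASSF8 was high for SLC31A1 (11.68, others 11.02 to 11.04), SLC30A1 (9.766, others 9.38 to 9.43), SLC39A14 (9.682, others 8.712 to 8.739) and SLC39A8 (10.76, others 10.38 to 10.41). IGF2R was high for MT1X (6.791, others 6.438 to 6.456). IGFBP2 was low for SLC30A2 (6.62, others 7.281 to 7.38), SLC39A5 (6.789, others 7.007 to 7.015) and the dim MT1B (4.492, others 4.519 to 4.524). Among the 10 zinc finger knockdowns, ZNF254 was low for SLC39A3 (7.852, others 8.168 to 8.521) and ZNF91 was low for SLC39A9 (10.36, others 10.65 to 10.87). Each of these arrays is the single array of its knockdown.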

How the results depend on the processing

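No paired analysis was possible because each knockdown has 1 array and no replicate number shared with siCON. The count of 1 gene called against siCON became 0 with array medians equal and with the pooled-variance test of the methods, whether adjusted by Benjamini-Hochberg (SLC31A1 adjusted p = 0.0643) or by Bonferroni. With each array left out it ranged from 0 to 1, and was 0 without either siCON array and without ZNF43, ZNF85, ZNF665 or ZNF708. The count of 0 between zinc finger and other knockdowns ranged from 0 to 9 with each array left out, 9 being without IGFBP2. The 8 combinations of gene and knockdown past 1 became 83 at a threshold of 0.5 and ranged from 7 to 14 with 1 siCON array left out. The r of MT1X and MT1G was −0.00442 with array medians equal, −0.0267 with quantile normalization, −0.035 over zinc finger knockdowns alone and −0.459 without the 2 farthest arrays, and ranged from −0.427 to 0.202 with each array left out. That of MT1X and SLC30A1 was −0.0734 without the 2 farthest arrays. SLC40A1 turned to 0.02436 with quantile normalization and 0.006171 without the trend on expression. With 1 siCON array left out, FTL ranged from −0.04429 to 0.1448, MT1L from −0.394 to 1.274 and SLC30A7 from −0.03006 to 0.2155. The causes were not tested beyond the arrays named. All other alternatives run for the genes given by the naming rule kept direction and side of the threshold, SLC31A1 losing its call under those settings where the count became 0. Averaging a gene's clusters could not move these differences, since 0 of the 35 genes had a second cluster of their own, and is no sign of stability. With 2 siCON arrays and 1 array per knockdown, a change in a single knockdown has no replicate check, and 5 of the 35 genes lay under the lower quartile on every array.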
